A study of Homo sapiens with 4 samples.

Results

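TXNIP, 4 of its arrestin-domain relatives and the 4 core genes of the thioredoxin system were followed through a knockdown of PRMT9 in human leukaemia cells. The 9 genes were taken by symbol from a table of 57992 genes, and each of the 9 passed the filter on low counts and entered the test with 15193 genes in all. The set was chosen by the fold change of TXNIP between the hairpin groups of these same libraries, so the values of TXNIP in the knockdown comparison are given as a description, without a test. The other 8 genes were added as relatives and partners of TXNIP, and their values come from a fit over all tested genes.

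The cells were MOLM13, an established acute myeloid leukaemia line, in a subline marked VEN-R that the series title links to venetoclax resistance. All 4 libraries came from cells given doxycycline, which induced a control hairpin (shCtrl, labelled WT) in 2 libraries and a hairpin against PRMT9 (shPRMT9, labelled PRMT9 knockdown) in the other 2. PRMT9 encodes an arginine methyltransferase. Poly(A) RNA was sequenced, with a total of 28592902 to 33845172 counts per library, and the labels do not say whether libraries 1 and 2 of a group are separate cultures, repeats of 1 culture or different hairpin sequences. P-values and SDs thus describe spread among the 4 libraries alone, and no group without doxycycline was analysed here.

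TXNIP is an alpha-arrestin that binds reduced thioredoxin and blocks its activity, and it also helps to draw glucose transporters off the cell surface. Its gene is a classic target of MondoA (MLXIP) with its partner MLX, which sense glucose 6-phosphate, and ARRDC4 is switched on by the same pair. Alpha-arrestins carry PPxY motifs that recruit ubiquitin ligases of the NEDD4 family to membrane proteins. Thioredoxin reduces disulfides in target proteins, and thioredoxin reductases, which contain selenocysteine, recharge it with electrons from NADPH. TXN and TXNRD1 serve the cytosol and nucleus, while TXN2 and TXNRD2 serve the mitochondrion. In leukaemia cells the system supports peroxide removal and the making of deoxynucleotides.

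Promoter stretches of TXNIP, ARRDC4, ARRDC3 and TXNRD1 are shown first, with letter matches to the motifs named below. RefSeq gave 14 start sites for 8 of the 9 genes (TXN2 is named only), and the 250 bases before each start were searched on both strands. The motifs were the paired form of the carbohydrate response element (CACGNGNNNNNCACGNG), the E-box CACGTG, which can also form 1 arm of that element, the antioxidant response element core (TGACNNNGC), the CCAAT box and the forkhead motif GTAAACA. Matches are in capitals, the sequences read 5′ to 3′ on the strand of the gene, each ends at the base before the start site, and the coordinates are those of GRCh38.p14.
TXNIP (chr1:145996580-145996729, minus strand): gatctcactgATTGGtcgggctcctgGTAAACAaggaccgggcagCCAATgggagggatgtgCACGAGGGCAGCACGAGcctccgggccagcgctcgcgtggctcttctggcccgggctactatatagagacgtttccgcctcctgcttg
ARRDC4 (chr15:97960453-97960702, plus strand): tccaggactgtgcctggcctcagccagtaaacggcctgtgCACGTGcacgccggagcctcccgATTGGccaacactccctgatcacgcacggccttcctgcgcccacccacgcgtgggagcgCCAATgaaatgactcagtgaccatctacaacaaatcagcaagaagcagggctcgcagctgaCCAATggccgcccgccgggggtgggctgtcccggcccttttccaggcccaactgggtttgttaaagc
ARRDC3, inner start (chr5:91380098-91380247, minus strand): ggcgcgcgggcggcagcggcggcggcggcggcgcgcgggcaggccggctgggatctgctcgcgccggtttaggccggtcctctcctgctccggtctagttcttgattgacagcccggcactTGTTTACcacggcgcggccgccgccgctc
TXNRD1, outer start (chr12:104215629-104215778, plus strand): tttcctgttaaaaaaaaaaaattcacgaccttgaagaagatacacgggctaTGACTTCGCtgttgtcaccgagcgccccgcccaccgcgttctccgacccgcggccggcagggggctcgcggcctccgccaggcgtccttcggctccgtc
TXNRD1, inner start (chr12:104286882-104287031, plus strand): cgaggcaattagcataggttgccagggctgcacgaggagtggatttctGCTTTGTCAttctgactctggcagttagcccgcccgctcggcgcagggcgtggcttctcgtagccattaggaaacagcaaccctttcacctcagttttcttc

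The paired element stood 88 bases before the TXNIP start, in the form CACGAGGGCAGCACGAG, and were found at no other start of the group. This motif occurred before 16 of 35116 start sites in the whole RefSeq table (0.0456%). TXNIP also held the forkhead motif 124 bases before its start, a motif present at 2.98% of start sites, and a CCAAT box on each strand. ARRDC4, the other known glucose-responsive member, held an E-box 210 bases before its start (6.34% of start sites hold one) and 3 CCAAT boxes (32.0% hold at least 1). CCAAT boxes also lay before starts of ARRDC1 (80 bases), ARRDC2 (93), ARRDC3 (241) and TXNRD1 (174 and 172). The CCAAT boxes of TXNRD1 lie outside the stretch shown for each start. The antioxidant core lay 99 bases before the outer start of TXNRD1 and 102 bases before the inner start, and 10.9% of start sites hold it. ARRDC2 held it too, 68 bases before 1 of its starts. The forkhead motif also lay 29 bases before the inner start of ARRDC3. A match describes letters in a window and says nothing of whether a factor was bound, and a window without a match says nothing of the factor.

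PRMT9 itself was at 13.2 and 14.3 CPM (counts scaled to library size, with the TMM factors of edgeR) with the control hairpin and at 2.62 and 2.30 CPM with the PRMT9 hairpin. It fell by 2.48 on the log2 scale (SE 0.12, adjusted p = 5.24e-13, edgeR quasi-likelihood test), so 17.9% of the control level was left. Myeloid markers fixed as a check of the cell type were all detected, and their summed level went from 2687.0 and 2675.8 CPM of the library total in the controls to 3730.5 and 3746.0 CPM with the PRMT9 hairpin. Of these 12 markers 10 rose and 2 fell (median log2 fold change 0.55), where 33.4% of all 15193 tested genes were called higher and 34.5% lower at an edgeR adjusted p below 0.05. The rises included ITGAM (1.83), an integrin of mature myeloid cells, CSF3R (1.18), the G-CSF receptor, and AZU1 (0.70), a granule protein. AZU1 and LYZ, the latter named after its value was seen, made the largest parts of the summed level. Their mean CPM went from 649.2 to 1055.2 and from 607.0 to 942.5. The falls were in the granule enzymes MPO (-0.47) and ELANE (-0.11), the latter lost with upper-quartile scaling. Whether this shift plays a part in the values below was not tested. Most markers of other lineages were near 0. No count in any library was seen for 7 of 10 erythroid and megakaryocyte genes, including HBB and PF4. The same held for EPCAM, KRT19 and COL3A1 among 9 epithelial and stromal genes. The erythroid sum stayed between 0.42 and 1.04 CPM. The epithelial and stromal sum was 22.5 to 27.0 CPM, nearly all of it KRT18, and the lymphoid sum went from 14.9 to 16.1 CPM up to 27.3 to 28.4 CPM, nearly all of it NKG7. Both were called higher, NKG7 by 0.87 (edgeR adjusted p = 8.08e-10) and KRT18 by 0.18 (edgeR adjusted p = 0.0138). In bulk RNA, more cells of a kind and more RNA per cell cannot be told apart.

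TXNIP (ENSG00000265972, chromosome 1, 145992435 to 145996600, minus strand, GRCh38) was higher with the PRMT9 hairpin in every library. Its level was 243.4 and 247.4 CPM in the control libraries and 693 and 699.9 CPM in the PRMT9 hairpin libraries. The groups lay far apart, with the libraries of a group close together. The means were 245.4 ± 2.82 CPM (SD, n = 2 libraries) and 696 ± 4.90 CPM (SD, n = 2 libraries), which gave a log2 fold change of 1.51 (SE 0.02), or 2.84-fold. Behind it stood 7360 and 7011 counts in the controls and 21429 and 23759 counts with the PRMT9 hairpin. TXNIP took 0.0243% and 0.0245% of all counts in the controls and 0.0697% and 0.0702% with the hairpin. None of its 50-base windows occurs in another annotated transcript, and no other gene of the table overlaps it.

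Of the 15193 tested genes 774 had a larger log2 fold change than TXNIP. Per exon length, TXNIP moved from rank 496 and 486 among tested genes in the controls to rank 151 in each PRMT9 hairpin library.

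The genes whose profile over the 4 libraries was closest to that of TXNIP were sought among 8762 protein-coding genes with a mean of at least 10 CPM. Closeness was the Euclidean distance between log2 CPM values centred on each gene's mean. The 5 nearest were QPRT, an enzyme of NAD synthesis (distance 0.0155), F11R, a junctional adhesion molecule (0.0292), ALDH6A1, a mitochondrial dehydrogenase of valine breakdown (0.0454), the zinc finger gene ZNF395 (0.0549) and IFI16, a DNA sensor (0.0590). With 2 groups of 2 libraries this measure mostly finds genes with the same fold, and these 5 had log2 fold changes between 1.46 and 1.54.

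**Figure D1:**
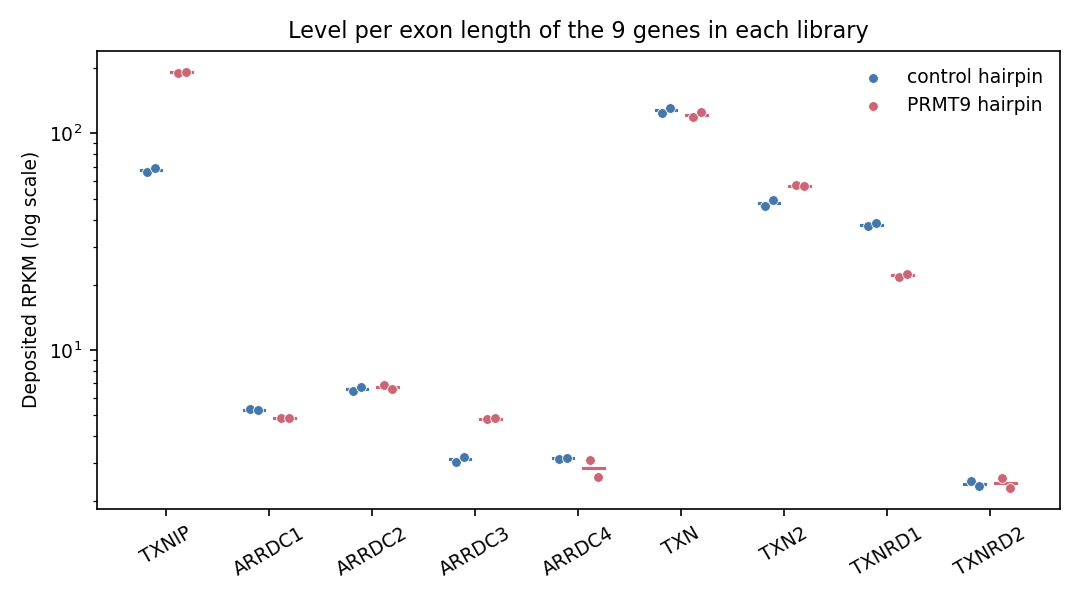
Level of each gene in each library, as deposited RPKM (counts scaled to exon length and library size) on a log scale, with a point per library and a short line at the group mean. TXNIP sits at 66.3 and 69.1 RPKM in the control libraries and at 190.6 and 192.9 RPKM in the PRMT9 hairpin libraries, where it lies above TXN.

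The arrestin-domain relatives did not rise as a family. Of ARRDC1 to ARRDC4, 1 passed the test upwards and 0 downwards, at an edgeR adjusted p below 0.05. Over all 15193 genes 33.4% were called higher and 34.5% lower, 67.9% in all, so a call of either sign was common in this comparison. The median log2 fold change of the 4 relatives was -0.04, against 0.0008 over all tested genes. With TXN, TXN2, TXNRD1 and TXNRD2 added, 2 of 8 rose, 1 fell and 5 were not called (median -0.03, or 0.06 with upper-quartile scaling).

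ARRDC3, an adaptor that links receptors and integrins to ubiquitin ligases, was the relative that rose. It was at 15.1 and 15.7 CPM in the controls and at 23.6 and 23.9 CPM with the PRMT9 hairpin, so the groups did not overlap. It rose by 0.62 on the log2 scale (SE 0.07, 95% confidence interval 0.49 to 0.76, edgeR adjusted p = 8.59e-08), or 1.54-fold. ARRDC3-AS1 lies on the opposite strand and shares 145 exon bases with it, but had only 24, 6, 4 and 3 counts in the 4 libraries against 445 to 810 for ARRDC3.

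ARRDC4 shares MondoA with TXNIP as a known activator. It was at 12.9 and 12.8 CPM in the controls and at 12.6 and 10.6 CPM with the PRMT9 hairpin, so the second PRMT9 hairpin library was low and the first lay just under the controls. A log2 fold change of -0.15 (SE 0.09) did not pass the test (edgeR adjusted p = 0.158), with a 95% confidence interval of -0.35 to 0.04. The upper end of that interval is 103.1% of the control level. Without PRMT9 hairpin library 1 the value was -0.28 and passed the test (adjusted p = 0.0332), and without PRMT9 hairpin library 2 it was -0.03 (adjusted p = 0.824). None of the 50-base windows of ARRDC4 occurs elsewhere among the annotated transcripts.

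ARRDC1, which drives the budding of small vesicles from the plasma membrane, was at 20.5 and 19.9 CPM in the controls and at 18.5 CPM in each PRMT9 hairpin library. The groups lay apart by a small step, and the log2 fold change of -0.12 (95% confidence interval -0.26 to 0.01) did not pass the test (edgeR adjusted p = 0.105). Its antisense neighbour ARRDC1-AS1 shares 29 exon bases with it and fell by 1.44 on the log2 scale (SE 0.12, edgeR adjusted p = 3.16e-09), from 242 to 272 counts to 96 to 113 counts. Without knowledge of strand in the counting, reads in the shared stretch cannot be assigned. ARRDC2 was at 30.4 and 30.9 CPM in the controls and at 32.2 and 30.7 CPM with the PRMT9 hairpin, and the groups overlapped. Its log2 fold change of 0.04 (95% confidence interval -0.07 to 0.14) did not pass the test (edgeR adjusted p = 0.562). With upper-quartile scaling, which moved the median of all genes by 0.09, the value was 0.12 and passed (adjusted p = 0.0428). Of the 50-base windows of ARRDC2 7.94% also occur in another annotated transcript, the largest share among the 9 genes.

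Within a library, ARRDC3 stood at 0.965 and 1.01 times the RPKM of ARRDC4 in the controls and at 1.55 and 1.86 times with the PRMT9 hairpin. The groups did not overlap, although 2 libraries against 2 cannot give an exact permutation p below 0.333 (two-sided, which was the value here and after adjustment over the 3 ratios tested). TXNIP made up 78.7% and 79.0% of the summed RPKM of the 5 alpha-arrestins in the controls and 90.7% and 91.1% with the hairpin.

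**Figure D2:**
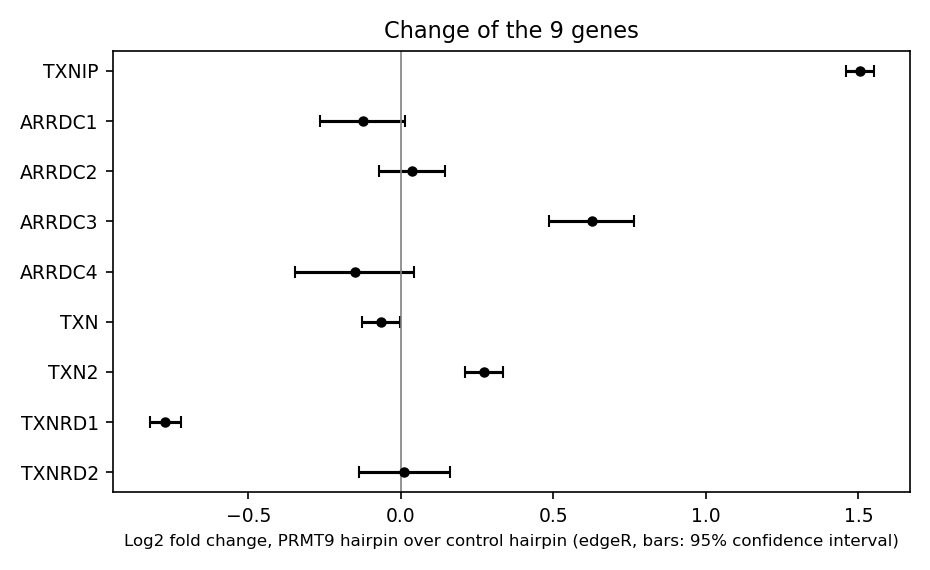
Log2 fold change of each gene, PRMT9 hairpin over control hairpin, from edgeR, with bars for the 95% confidence interval. TXNIP lies at 1.51, ARRDC3 and TXN2 lie above 0, TXNRD1 lies at -0.77, and the bars of ARRDC1, ARRDC2, ARRDC4 and TXNRD2 cross 0.

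In the thioredoxin system the cytosolic reductase gene fell and the mitochondrial thioredoxin gene rose. Of the 4 genes 1 fell, 1 rose and 2 did not pass the test. Over all tested genes 34.5% were called lower and 33.4% higher. TXNRD1 (ENSG00000198431, chromosome 12, 104215779 to 104350305, plus strand), which recharges cytosolic thioredoxin, was at 253 and 255.1 CPM in the controls and at 146.9 and 150.3 CPM with the PRMT9 hairpin. The groups were clearly apart, with little spread inside either group. It fell by 0.77 on the log2 scale (SE 0.02, 95% confidence interval -0.82 to -0.72, edgeR adjusted p = 1.35e-15), which leaves 58.5% of the control level. None of its 50-base windows recurs in another annotated transcript, and the genes that lie inside it (such as the pseudogene RPL18AP3) share no exon base with it. Its 24 annotated transcripts, which begin from several starts, were counted together.

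TXN, the cytosolic thioredoxin that TXNIP binds, moved little. It was at 143.8 and 147.7 CPM in the controls and at 135.6 and 142.7 CPM with the PRMT9 hairpin, so the groups were barely apart in CPM, and in RPKM they overlapped. The log2 fold change of -0.07 (SE 0.03, edgeR adjusted p = 0.0561) did not pass the test, and the 95% confidence interval ran from -0.13 to -0.0039. Without control library 1 it was -0.08 (adjusted p = 0.0347) and without PRMT9 hairpin library 2 it was -0.10 (adjusted p = 0.0158), both past the threshold. Without control library 2 and without PRMT9 hairpin library 1 it was -0.03 each (adjusted p = 0.45 and 0.466). With upper-quartile scaling the sign turned (0.02, adjusted p = 0.496). Of its 50-base windows 3.34% also occur in processed pseudogenes of TXN, so a small part of its reads could be placed elsewhere.

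Of the mitochondrial pair only the thioredoxin gene passed the test. TXN2, the mitochondrial thioredoxin, was at 95.8 and 99.3 CPM in the controls and at 118.3 and 117.2 CPM with the PRMT9 hairpin. The groups did not overlap, and the rise was small at 0.27 (SE 0.03, 95% confidence interval 0.21 to 0.33, edgeR adjusted p = 1.43e-07), or 1.21-fold. TXNRD2, the mitochondrial reductase, was at 20.9 and 19.5 CPM in the controls and at 21.5 and 19.3 CPM with the PRMT9 hairpin. The PRMT9 hairpin libraries lay on either side of the controls, and the log2 fold change of 0.01 (95% confidence interval -0.14 to 0.16, edgeR adjusted p = 0.896) did not pass the test. The sign changed to -0.02 without control library 2 and to -0.07 without PRMT9 hairpin library 1.

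Compared per exon length, the order of the genes changed at the top. In the controls TXN led at 124.4 to 130.9 RPKM, followed by TXNIP at 66.3 to 69.1 RPKM, TXN2 at 46.2 to 49.0 RPKM and TXNRD1 at 37.3 to 38.5 RPKM, with no overlap between neighbours. The 5 others lay well below, from ARRDC2 at 6.48 to 6.75 RPKM down to TXNRD2 at 2.36 to 2.47 RPKM. Of these, ARRDC4 (3.14 to 3.18 RPKM) and ARRDC3 (3.03 to 3.22 RPKM) could not be ordered. With the PRMT9 hairpin TXNIP led at 190.6 to 192.9 RPKM, and TXN came next at 118.4 to 124.9 RPKM. TXN2 followed at 57.1 to 57.5 RPKM, then TXNRD1 at 21.8 to 22.4 RPKM, and ARRDC3 at 4.78 to 4.83 RPKM had come up beside ARRDC1 at 4.84 to 4.85 RPKM.

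The crossing of TXNIP and TXN can be read as a ratio within each library. TXNIP had 0.533 and 0.528 times the RPKM of TXN in the controls and 1.61 and 1.54 times with the PRMT9 hairpin. The ratio of TXN to TXNRD1 went from 3.34 and 3.40 to 5.42 and 5.58, and the ratio of TXNRD1 to TXNRD2 from 15.1 and 16.3 to 8.52 and 9.72. In each case the libraries of a group were close and the groups lay apart. For the last 2 ratios the exact permutation p was 0.333 (two-sided), the smallest that this design allows.

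**Figure D3:**
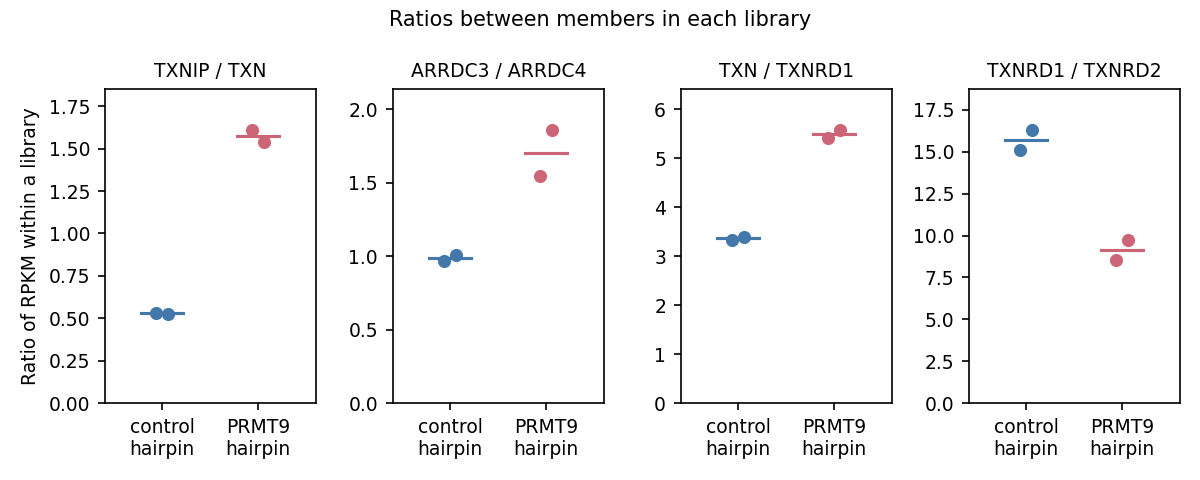
Ratio of RPKM between pairs of members in each library (points) with the group mean (line), each panel starting at 0. TXNIP over TXN goes from 0.533 and 0.528 to 1.61 and 1.54, and TXNRD1 over TXNRD2 falls from 15.1 and 16.3 to 8.52 and 9.72.

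Genes that act on or beside these members were described from fixed lists. Among transcription factors known to act on TXNIP, 8 of 9 passed the filter. The test called 3 of them higher and 4 lower (median -0.13), beside 33.4% and 34.5% of all tested genes. MLX, the obligate partner of MondoA, went from 83.1 and 87.5 CPM to 54.0 and 52.9 CPM (-0.68, edgeR adjusted p = 7.41e-12), while MLXIP, which encodes MondoA, rose by 0.16 (adjusted p = 8.60e-05). MLXIPL, which encodes ChREBP, had too few counts to test. The forkhead factors split, with FOXO4 (0.61) and FOXO3 (0.14) higher and FOXO1 (-0.57), which is named after its value was seen, lower. The heat shock factor HSF1 fell by 0.38 and NR3C1, the glucocorticoid receptor, by 0.25.

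Ubiquitin ligases of the NEDD4 family, the partners of the alpha-arrestins, moved little. Of 8 tested 1 rose and 1 fell, where 33.4% of all tested genes were called higher and 34.5% lower. The called genes were NEDD4 (0.14) and ITCH (-0.19), a ligase of TXNIP, and the list median was 0.06. This count of 2 was 1 without either PRMT9 hairpin library, and with upper-quartile scaling 2 rose and 0 fell, ITCH not being called (-0.10, adjusted p = 0.128). Other genes with an arrestin fold included VPS26A, a retromer subunit, which went from 130.9 and 131.9 CPM to 54.7 and 56.0 CPM (-1.25, edgeR adjusted p = 6.40e-17). The classical arrestins ARRB1 and ARRB2 rose by 0.43 and 0.36. The remaining 2 of 5 tested were not called (median 0.05), where 67.9% of all tested genes were called. With upper-quartile scaling 4 of the 5 rose and 1 fell, where 5915 of the 15193 tested genes were called higher and 4440 lower.

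Glucose transporter and hexokinase genes were mostly higher. Of 11 tested 9 rose and 1 fell (median 0.71), where 33.4% of all tested genes were called higher and 34.5% lower. With upper-quartile scaling 9 rose and 0 fell, where 5915 of the 15193 tested genes were called higher and 4440 lower. SLC2A3, a high-affinity glucose transporter, went from 177.7 and 188.4 CPM to 375.4 and 371.5 CPM (1.03, edgeR adjusted p = 5.48e-17), HK2 rose by 0.65 and the fructose transporter gene SLC2A5 by 0.97. SLC2A1, whose protein TXNIP draws into the cell, went from 37.2 and 39.2 CPM to 70.8 and 67.4 CPM (0.85, adjusted p = 2.75e-12) and is named here after its value was seen. The gene that fell was SLC2A13 (-0.23), a transporter of inositol, a call lost with upper-quartile scaling (-0.15, adjusted p = 0.117). SLC2A3 has a near-identical copy, SLC2A14, also among the 9 rises, so the split of reads between them is uncertain. Some of the rises were at low levels. Mean CPM went from 2.42 to 4.39 for SLC2A14, from 1.05 to 4.13 for HK3 and from 2.52 to 4.04 for SLC2A11. HK3 and SLC2A11 are named after their values were seen.

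Enzymes that draw on thioredoxin were mostly lower. Of 12 tested 8 fell and 2 rose (median -0.19), where 34.5% of all tested genes were called lower and 33.4% higher. With upper-quartile scaling 6 fell and 3 rose, where 4440 of the 15193 tested genes were called lower and 5915 higher. The ribonucleotide reductase genes RRM2 and RRM1 fell by 0.73 and 0.55, and the mitochondrial peroxiredoxin gene PRDX3 by 0.31. The rises were in MSRB2 (1.23), a mitochondrial methionine sulfoxide reductase gene with under 10 CPM, and PRDX5 (0.12). Of 19 other tested genes of thioredoxin-like and glutaredoxin proteins 11 fell and 3 rose (median -0.32), beside the same shares of all tested genes. With upper-quartile scaling 11 fell and 5 rose. TXNL4A, a spliceosome component, fell by 0.87, TMX4 by 0.75 and GLRX3, a glutaredoxin of iron handling, by 0.44. GLRX, the cytosolic glutaredoxin, rose by 0.81, TXNDC16 by 0.42 and NXN by 1.39 from a level below 1 CPM.

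Genes listed for the synthesis and insertion of selenocysteine, which both reductases contain, had 4 falls and 2 rises among 7 (median -0.25). Over all tested genes 67.9% were called. A gene on this list need not be one that the reductases depend on. With DESeq2 3 of the 7 were called. SEPHS1 fell by 0.97, SECISBP2, which binds the selenocysteine insertion element, by 0.60, SEPHS2 by 0.31 and EEFSEC by 0.25, whereas PSTK (0.33) and SEPSECS (0.22) rose.

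NRF2 is the main activator of TXNRD1 under oxidative stress. The list around it mixes NRF2, its partners, its repressors and its targets, so counts of falls and rises give no direction of NRF2 output. Of 17 tested factors and targets 10 fell and 4 rose (median -0.23), where 34.5% of all tested genes were called lower and 33.4% higher. With upper-quartile scaling 9 fell and 6 rose, where 4440 of the 15193 tested genes were called lower and 5915 higher. The cystine transporter gene SLC7A11 went from 33.9 and 35.5 CPM to 5.37 and 5.21 CPM (-2.71), and GCLM and GCLC, the subunits of the enzyme that begins glutathione synthesis, fell by 0.73 and 0.88. The rises with the lowest adjusted p were in BACH1 (0.31), a repressor of NRF2 targets, MAFF (1.54) and HMOX1 (1.61), the last from 1.22 and 1.34 CPM to 3.62 and 4.18 CPM. Among the 3 listed proteins that TXN or TXNIP binds, the genes of APEX1 (0.21) and NLRP3 (0.24) rose and that of the kinase MAP3K5 fell by 0.15, and with upper-quartile scaling 2 rose and 0 fell, MAP3K5 not being called (-0.06, adjusted p = 0.257).

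**Figure D4:**
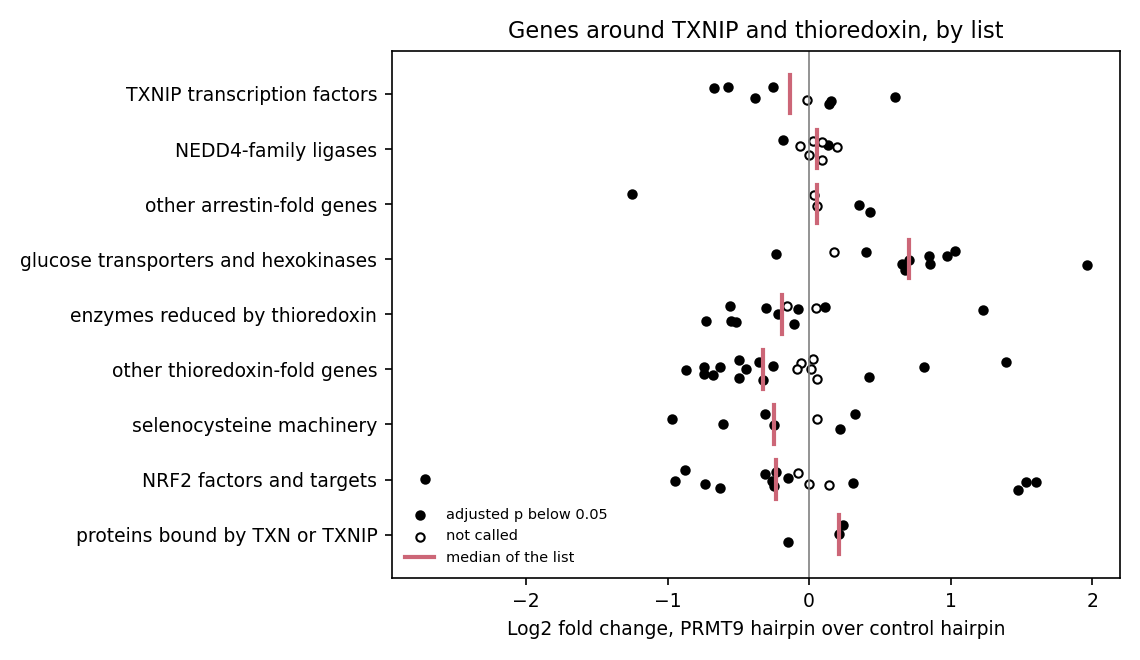
Log2 fold change of each tested gene in the lists around TXNIP and thioredoxin, PRMT9 hairpin over control hairpin. Filled points passed an edgeR adjusted p below 0.05, open points did not, and the bar is the list median, at 0.71 for glucose transporters and hexokinases and at -0.32 for the other thioredoxin-fold genes.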

How the data were processed

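Poly(A) RNA of 2 control hairpin and 2 PRMT9 hairpin libraries was compared. One table deposited by the authors holds raw counts for each Ensembl gene, and RPKM values were deposited beside them. Recomputed from counts and exon length, the RPKM carry 1 scaling factor per library (0.979 to 1.01). Trimmomatic 0.39, STAR 2.7.2a and SAMtools 1.10 are named, without roles, in the submitters' processing notes, and the build is GRCh38. Which program counted reads, and whether by strand, is not given in the sources used here; start and end of all 9 genes match those of GENCODE release 29.

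Genes were filtered with filterByExpr (minimum count 10), which kept 15193 genes with 99.9% of counts, and tested with edgeR 4.0.16 (quasi-likelihood, TMM, robust, R 4.3.3), called at a Benjamini-Hochberg adjusted p below 0.05 over all tested genes. The fit was tested on simulated data. CPM values carry the TMM factors except summed marker levels, which are shares of the library total. Alternatives were other scalings and filters, DESeq2 1.42.0, limma 3.58.1 on log2 of the RPKM plus 1 or 0.1, a replicate block and each library left out.

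The members and lists were chosen with earlier results of these data known. Named genes are the 9 members, PRMT9, genes overlapping a member, each called gene of a list with up to 6 calls, otherwise the 3 with the lowest adjusted p in each direction, and the 5 genes nearest to TXNIP. Some results that this rule would name are not reported here.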

Additional observations from a re-analysis of the deposited data

How the results depend on the processing

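TXNIP stayed between 1.49 and 1.59 on the log2 scale under every alternative run: 1.59 with upper-quartile scaling, 1.54 with a filter at 1 CPM in 2 libraries, 1.49 in log2(RPKM + 1) with and without a filter on low values, and 1.495 to 1.533 with a library left out. ARRDC3, TXN2 and TXNRD1 kept their direction and call in all 13 alternatives. TXN turned to 0.0228 with upper-quartile scaling, and TXNRD2 ranged from -0.0682 to 0.0903 with a library left out. The replicate numbers do not pair the libraries by the labels, and the deviations of same-numbered libraries correlated at -0.0307 across genes. With the replicate number as a block 10243 genes were called against 10313 without it, and 4 of the 8 tested members against 3, the added one being TXN (-0.07, adjusted p = 0.0407).

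Counts on short lists moved most. The 2 calls among NEDD4-family ligases became 0 with DESeq2, in log2(RPKM + 1), in log2(RPKM + 0.1) and in log2(RPKM + 1) without a filter, and 1 to 2 with a library left out. The 3 calls among other arrestin-fold genes became 5 with upper-quartile scaling, the 10 among glucose transporters and hexokinases 6 in log2(RPKM + 1) without a filter, and the 6 in the selenocysteine machinery 3 with DESeq2. The single calls among erythroid and epithelial markers became 0 with DESeq2 and in log2(RPKM + 1) without a filter, the erythroid one also with a filter at 1 CPM and in log2(RPKM + 1), and each was 0 to 1 with a library left out. The causes were not tested. With 360 to 391 counts, ARRDC4 is the member measured least precisely.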

Other observations

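Some genes of the fixed lists had no or almost no counts. TXNRD3, the third thioredoxin reductase gene, had 0 counts in each of the 4 libraries. An expected count of 3, an approximate 95% upper bound when 0 are seen, would be 0.0886 to 0.105 CPM. SRXN1, which repairs overoxidised peroxiredoxins, had 7, 9, 3 and 9 counts and was not tested. The glucose transporter gene SLC2A8 also had 0 counts in each library. How the counting treated these genes is not given in the sources used here, so the values are those of the table and not a measure of expression.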
